A study of Mus musculus with 8 samples.

Results

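ATM and ATR checkpoint genes encode the kinases that sense damaged or stalled DNA, the proteins that switch those kinases on, and the WEE1 and CDC25 enzymes that set the activity of the cyclin-dependent kinases (CDKs) at the end of the pathway. The set holds 10 genes, Atm, Atr, Atrip, Chek1, Chek2, Topbp1, Clspn, Wee1, Cdc25a and Cdc25b, taken by symbol from the 23131 genes of the table. All 10 were found, and all 10 passed the filter on low values. Transcripts were measured by RNA sequencing of polyadenylated RNA from sorted granulocyte-macrophage progenitors (GMP), the bone marrow precursors of neutrophils and monocytes. RH2hKO replicates 5 to 8 came from 4 C57BL/6 mice with floxed Rnaseh2b alleles (Rnaseh2bfl/fl) and VavCre+. RH2hWT replicates 1 to 4 came from 4 littermates of the same strain that carried the same floxed alleles and were VavCre-. Vav-Cre is a recombinase made in blood-forming cells, so the deletion is not limited to GMP. The labels give no ages for the mice.

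RNase H2, of which Rnaseh2b makes a subunit, starts the removal of single ribonucleotides from the genome. In the pathway as it is known from other systems, single-stranded DNA coated by RPA recruits ATR through its partner ATRIP. TOPBP1 then activates ATR, and claspin holds the kinase CHK1 where ATR can phosphorylate it. Double-strand breaks act through ATM and the kinase CHK2. CHK1 and CHK2 restrain the CDC25 phosphatases, which remove the inhibitory phosphate that WEE1 places on CDKs. Much of this control acts on the proteins by phosphorylation and degradation, and transcript levels do not show it.

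The libraries held 28352720 to 45655518 reads assigned to genes, and the members had 607 to 15644 reads per library, so that the error from counting alone was at most 4.06% of a value. Values are counts that the authors normalised by library. Rnaseh2b served as the check of genotype, with 75.9 to 127.5 normalised counts in RH2hKO and 1207 to 2470 in RH2hWT. The knockout mean was 5.77% of the control mean, and no library went against its label. None of 8 GMP markers passed the test below. Kit, Cd34, Fcgr3, Fcgr2b, Mpo, Elane, Prtn3 and Ctsg were present in every library, some of them used in the sort itself, with summed values of 1115997 to 1173490 in RH2hKO and 1235038 to 1339438 in RH2hWT. Lymphoid markers were near 0, with summed values of 11.6 to 19.4 in RH2hKO and 4.7 to 66.2 in RH2hWT. RH2hKO replicate 8 (49.7) and RH2hWT replicate 1 (-34.6) stood apart on the second principal component, where the other 6 libraries lay between -10.95 and 13.96. Where leaving them out changes the call on a member, a named partner gene or a gene nearest to Cdc25b in pattern, the change is stated. For the cell markers, calls are given over all libraries only.

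Only Cdc25b changed among the 10 checkpoint genes. It rose to 1265 ± 330 normalised counts in RH2hKO, against 753.5 ± 29.3 in RH2hWT (SD, n = 4 each), a 1.63-fold difference (95% interval 1.3 to 2.05; limma adjusted p = 0.0353). The other 9 did not pass the test, with estimated differences from -10.4% to 4.16% and adjusted p from 0.363 to 0.933. Their 95% intervals together reached from -19.4% to 18.9%. Across all genes, 1.40% passed the same test (234 of 16688), 1.19% upward and 0.210% downward. The call is a statement about Cdc25b, and the count of 1 in 10 is a description. The median log2 fold change was -0.04 for the 10 members and -0.01 for all genes tested.

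**Figure D1:**
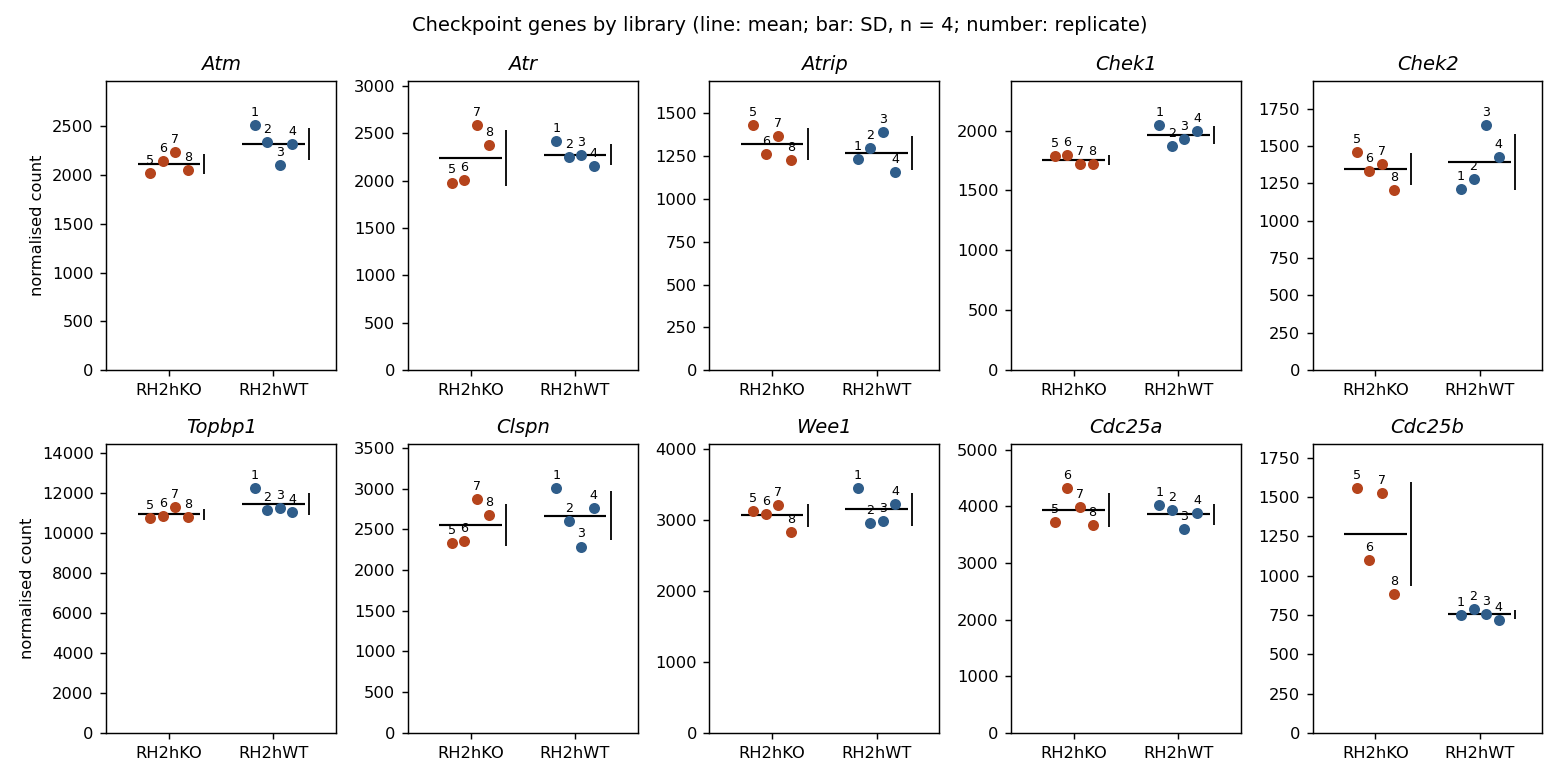
Normalised counts of the 10 checkpoint genes (y axis of each panel, starting at 0) in RH2hKO and RH2hWT libraries, each point 1 library labelled with its replicate number, with the group mean as a line and the SD as a bar (n = 4). Cdc25b and Chek1 are the 2 genes whose groups do not overlap: Cdc25b has 881 or more in every RH2hKO library and 789.7 or less in every RH2hWT library.

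Atm and Atr encode the large kinases at the top of the pathway. Atm (ENSMUSG00000034218, chromosome 9, 53439149 to 53536740, mm10) had 2016, 2142, 2235 and 2050 normalised counts in RH2hKO replicates 5 to 8, against 2510, 2336, 2104 and 2320 in RH2hWT replicates 1 to 4. The groups overlapped through RH2hWT replicate 3, and the log2 fold change was -0.13 ± 0.08 (SE; limma adjusted p = 0.499). Atr (ENSMUSG00000032409, chromosome 9, 95857597 to 95951781) had 1981, 2004, 2586 and 2379 in RH2hKO replicates 5 to 8, against 2420, 2246, 2275 and 2156 in RH2hWT replicates 1 to 4. The RH2hKO libraries lay on both sides of the controls, with replicates 5 and 6 low and replicate 7 high, and the log2 fold change was -0.03 ± 0.09 (SE; limma adjusted p = 0.926). The direction of Atr was not stable, since it was above 0 at equal library totals (log2 fold change 0.004). Atr shares 726 exonic bases with 1700065D16Rik, an antisense gene with a mean of 17.7 normalised counts.

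Atrip and Topbp1 encode the partner and the activator of ATR. Atrip (ENSMUSG00000025646, chromosome 9, 109057933 to 109074124) had 1432, 1262, 1369 and 1228 normalised counts in RH2hKO replicates 5 to 8, against 1236, 1299, 1389 and 1157 in RH2hWT replicates 1 to 4. These ranges overlapped, with the highest library in RH2hKO and the lowest in RH2hWT (limma adjusted p = 0.841). Atrip shares 1147 exonic bases with Trex1 on the same strand, so the assignment of reads between them is uncertain. Topbp1 (ENSMUSG00000032555, chromosome 9, 103305215 to 103350428) was the most abundant member, with 10737, 10861, 11315 and 10817 in RH2hKO, against 12262, 11167, 11253 and 11070.4 in RH2hWT, in the same order of replicates. The groups overlapped, RH2hWT replicate 1 was the highest library, and the log2 fold change was -0.06 ± 0.06 (SE; limma adjusted p = 0.722).

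Chek1, which encodes the kinase CHK1, was the one other member whose groups did not overlap. Chek1 (ENSMUSG00000032113, chromosome 9, 36708482 to 36727065) had 1787, 1799.6, 1718 and 1725 normalised counts in RH2hKO replicates 5 to 8, against 2045, 1873, 1930.1 and 1998 in RH2hWT replicates 1 to 4. Every RH2hKO library was lower than every RH2hWT library, by a small margin and with a narrow spread in both groups. Over all genes tested 7.41% had groups that did not overlap (1237 of 16688), 3.99% with RH2hKO higher and 3.42% with RH2hKO lower, so 2 members in 10 is a description only. The log2 fold change of Chek1 was -0.16 ± 0.07 (SE; 95% interval -0.31 to -0.004), and the adjusted p of 0.363 by limma did not pass the threshold of 0.05. Neither leaving out any 1 library nor any other alternative brought it past the threshold (adjusted p 0.193 to 0.652).

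Clspn, which encodes claspin, and Chek2, which encodes CHK2, varied among the controls as much as among the knockouts. Clspn (ENSMUSG00000042489, chromosome 4, 126556935 to 126593903) had 2334, 2353, 2867 and 2675 normalised counts in RH2hKO replicates 5 to 8, against 3009, 2601, 2289 and 2762 in RH2hWT replicates 1 to 4 (limma adjusted p = 0.858). Both the highest and the lowest library were controls. Chek2 (ENSMUSG00000029521, chromosome 5, 110839979 to 110874145) had 1460.3, 1332, 1380.3 and 1206 in RH2hKO, against 1213, 1282, 1639 and 1428 in RH2hWT, in the same order (limma adjusted p = 0.907). The highest library, RH2hWT replicate 3, set the spread of its group, at 13.5% of the control mean. Without that replicate the log2 fold change of Chek2 was 0.04, the opposite sign to the -0.04 over all libraries.

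Wee1 and Cdc25a stand on opposite sides of the CDK switch: WEE1 adds the inhibitory phosphate, and CDC25A removes it in S phase and before mitosis. Wee1 (ENSMUSG00000031016, chromosome 7, 110122046 to 110143286) had 3124, 3081, 3213 and 2835 normalised counts in RH2hKO replicates 5 to 8, against 3452, 2951, 2988 and 3218 in RH2hWT replicates 1 to 4 (limma adjusted p = 0.879). The groups overlapped. Cdc25a (ENSMUSG00000032477, chromosome 9, 109875579 to 109893895) had 3719, 4328, 3996 and 3676 in RH2hKO, against 4034, 3929, 3604 and 3880.4 in RH2hWT, in the same order (limma adjusted p = 0.933). RH2hKO replicate 6 was the highest library, and the other knockouts lay within the range of the controls. The 95% intervals were -13.1% to 8.92% for Wee1 and -9.03% to 13.5% for Cdc25a.

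**Figure D2:**
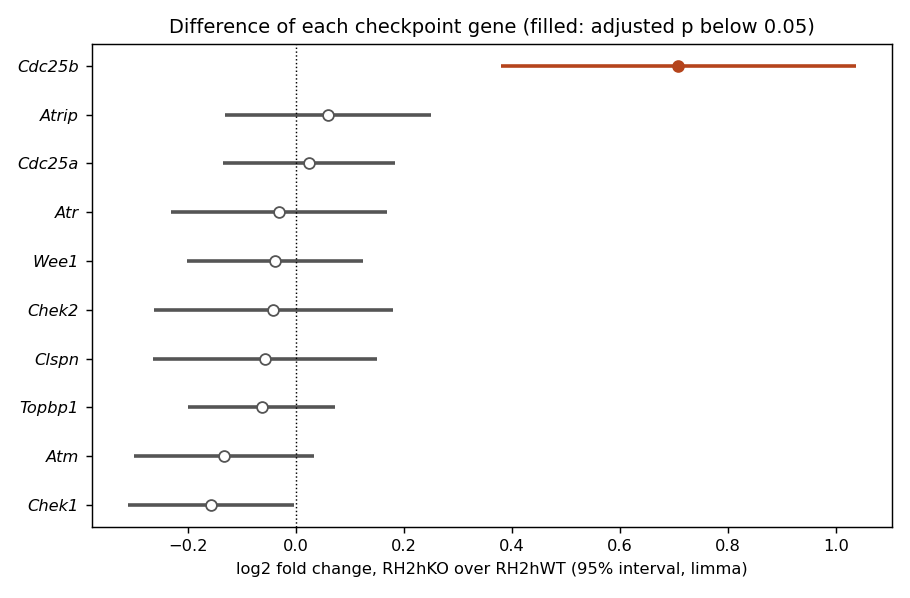
Log2 fold change of each checkpoint gene, RH2hKO over RH2hWT (x axis), with its 95% interval from limma (n = 4 each) and the genes down the y axis in order of size; the filled point has an adjusted p below 0.05. Cdc25b at 0.71 stands clear of the other 9, which lie between -0.16 and 0.06.

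Cdc25b encodes the phosphatase that helps to start CDK1 activation as cells approach mitosis. Cdc25b (ENSMUSG00000027330, chromosome 2, 131186949 to 131198497) had 1558, 1099, 1522 and 881 normalised counts in RH2hKO replicates 5 to 8, against 747, 789.7, 758 and 719 in RH2hWT replicates 1 to 4. All 4 knockouts were above all 4 controls. The controls lay close together, at 3.88% of their mean (SD), whereas the knockouts were spread over 26.1% of theirs, the widest of the 10 members. RH2hKO replicates 5 and 7 were highest, replicate 6 was intermediate and replicate 8 was nearest to the controls. The log2 fold change was 0.71 ± 0.15 (SE; 95% interval 0.38 to 1.04).

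The call on Cdc25b was close to the threshold. It ended without any 1 library other than RH2hKO replicate 8 (limma adjusted p 0.0555 to 0.140) and with no intensity trend (0.203), while the log2 fold change stayed between 0.59 and 0.87. Without RH2hKO replicate 8 it was 0.87 (adjusted p = 0.000633), without RH2hWT replicate 1 it was 0.70 (adjusted p = 0.0563) and without both it was 0.86 (adjusted p = 0.00105; limma in each case). On whole reads recovered from the table, edgeR gave an adjusted p of 0.0263 and DESeq2 gave 0.000144. The share of all genes called was 1.44% by edgeR, 3.34% by DESeq2, 3.41% without RH2hKO replicate 8 and 8.62% without both libraries. Cdc25b shares 92 exonic bases with Spef1 on the opposite strand, a gene with a mean of 88.1 normalised counts.

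Promoter sequence is shown for Cdc25b, the member that rose, and for Cdc25a, its relative that did not pass the test. Each is the 250 bases before the gene's start in RefSeq (GRCm38.p6, plus strand), chr2:131186698-131186947 for Cdc25b and chr9:109875329-109875578 for Cdc25a. Capitals mark matches, on either strand, to CCAAT or TTGGCGC, a form of the site that E2F factors bind. Neither window holds an annotated exon, and that of Cdc25b lies in an intron of Spef1 on the opposite strand.
Cdc25b: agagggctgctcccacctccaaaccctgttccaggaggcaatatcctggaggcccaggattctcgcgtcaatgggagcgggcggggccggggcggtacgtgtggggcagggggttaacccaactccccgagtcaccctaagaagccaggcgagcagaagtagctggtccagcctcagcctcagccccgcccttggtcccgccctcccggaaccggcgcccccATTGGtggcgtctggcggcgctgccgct
Cdc25a: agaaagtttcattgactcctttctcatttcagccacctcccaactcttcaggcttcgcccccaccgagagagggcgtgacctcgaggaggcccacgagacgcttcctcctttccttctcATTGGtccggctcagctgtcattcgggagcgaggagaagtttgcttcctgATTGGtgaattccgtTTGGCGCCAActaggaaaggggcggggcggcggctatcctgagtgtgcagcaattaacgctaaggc

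Cdc25b held 1 CCAAT match, 28 to 24 bases before its start, and Cdc25a held 2, at 131 to 127 and 81 to 77 bases before its start. Cdc25a also held TTGGCGC on both strands, in overlapping positions 66 to 60 and 63 to 57 bases before the start. Promoters were found for 9 members, and Wee1 was the other member. Of those 9, 6 held CCAAT, which 33.8% of 32851 promoter windows of this length hold. TTGGCGC was in 2 of the 9 (Topbp1 and Cdc25a; 1.97% of all windows), TTCCCGC in 1 (Chek2; 3.82%) and TTCGAA in 1 (Atr; 1.34%). No match to TTTGAA (16% of all windows) or to the p53 half-site (7.13%) was in these 9 windows, which says only that those letters are not there. All motifs were searched on both strands.

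The ratio of Cdc25b to each of the other switch genes within a library is nearly free of how libraries are scaled. The Cdc25b to Cdc25a ratio was 0.419, 0.254, 0.381 and 0.240 in RH2hKO replicates 5 to 8, against 0.185, 0.201, 0.210 and 0.185 in RH2hWT replicates 1 to 4. Every knockout was above every control, with a difference of 0.68 in log2 ratio. The Cdc25b to Wee1 ratio was 0.499, 0.357, 0.474 and 0.311 in RH2hKO, against 0.216, 0.268, 0.254 and 0.223 in RH2hWT, in the same order. That difference was 0.75 in log2 ratio. Both ratios were chosen with the rise of Cdc25b already known and restate it, so they are given as a description and no p is drawn from them.

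Some lists followed the order of Cdc25b over the knockouts and others did not. With 4 knockouts a list can share that order by chance, and the orders, a description only, were not tested. For CDK, cyclin and parallel switch genes the mean log2 difference was 0.09, -0.003, 0.03 and -0.02 in RH2hKO replicates 5 to 8. That is the order of Cdc25b. In reverse order were replication genes (-0.172, -0.103, -0.168 and -0.021) and recovery and turnover genes (-0.1185, -0.092, -0.103 and -0.009). The mean log2 difference of 20 mitosis genes from the control mean was 0.15, 0.05, 0.15 and -0.13 in RH2hKO replicates 5 to 8, the same order as Cdc25b. Over the controls it ran from -0.09 to 0.11, while Cdc25b stayed between 719 and 789.7 normalised counts. The mean of 10 p53 output genes was 1.33, 1.2, 1.17 and 0.52 in RH2hKO replicates 5 to 8, lowest again in replicate 8, and -0.13 to 0.09 in the controls. Of 7 monocyte and macrophage markers 1 rose, and their mean log2 difference was 0.40, 0.14, 0.36 and -0.24 in RH2hKO replicates 5 to 8, again in the order of Cdc25b, and -0.15 to 0.14 in RH2hWT. Their summed values were 96809 to 121102 in RH2hKO and 108814 to 116915 in RH2hWT. Of 7 dendritic cell markers 3 were tested and 2 rose (Bst2 and Flt3). The summed values of the list were 5137, 3989.5, 3979 and 4724 in RH2hKO replicates 5 to 8, against 2560.2 to 3174 in RH2hWT, an order unlike that of Cdc25b. That sum is mostly Bst2 (2952 to 4203 in RH2hKO, 2123 to 2653 in RH2hWT). Itgax did not rise (16.4 to 36 in RH2hKO, 23.2 to 45.3 in RH2hWT), and Siglech, Cd209a, Xcr1 and Zbtb46 were near 0. Of 6 megakaryocyte markers 4 were in the table, 3 were tested and 2 rose (Selp and Vwf). The summed values of the list were 1863, 2266, 1983 and 3462 in RH2hKO replicates 5 to 8, the reverse of the order of Cdc25b, against 1107 to 1527.5 in RH2hWT. Selp was 869 to 1218 in RH2hKO and 89.9 to 241 in RH2hWT. Itga2b overlapped between groups (911 to 2144 in RH2hKO, 974 to 1311 in RH2hWT), and Pf4 was near 0. Of 7 eosinophil markers 6 were tested and 2 fell. Their sum was 21298 in RH2hKO replicate 8 but 4527 to 9068 in RH2hKO replicates 5 to 7, against 16913 to 30696 in RH2hWT. Of 7 mast cell and basophil markers 1 fell, Gzmb (11.5 to 48.7 in RH2hKO, 158 to 217 in RH2hWT). The sum of the list was 17580.3 in RH2hKO replicate 8 but 4951 to 7751 in RH2hKO replicates 5 to 7, against 7508 to 10749 in RH2hWT. Fcer1a (2524) and Ms4a2 (3290.5) were highest in RH2hKO replicate 8. No later neutrophil, erythroid or stem and multipotent progenitor marker passed, and several were near 0. The mean log2 difference of later neutrophil markers was -1.85, -1.57, -1.25 and -0.80 in RH2hKO replicates 5 to 8, and -1.48 to 1.08 in RH2hWT. These markers did not move together. S100a8 was 164.8 to 1057.7 in RH2hKO and 500.9 to 5218.3 in RH2hWT, and Ltf, Camp and Retnlg were near 0 in every knockout. Lcn2 (576.2 to 1309.8 in RH2hKO, 459.7 to 551.3 in RH2hWT), Cxcr2 and Mmp8 ran higher in RH2hKO. For erythroid markers the mean log2 difference was 0.88, 0.51, 0.53 and 2.28, and -1.17 to 0.70 in RH2hWT. For stem markers it was -0.21, 0.62, 0.35 and 1.66, the reverse of the order of Cdc25b, and -0.20 to 0.27 in RH2hWT. No marker in the table was at 0 in every library. The summed GMP markers, given above, were lower in every knockout, and their median log2 fold change was -0.19. The sum is mostly Mpo (685130.3 to 780350.1 in RH2hKO, 753421 to 826988 in RH2hWT). Elane (137439 to 166575 in RH2hKO, 162184.5 to 209120 in RH2hWT) also ran lower, with overlap. So did Prtn3 (109268.5 to 145591.5 in RH2hKO, 134155 to 159897 in RH2hWT) and Ctsg. Kit and Cd34 did not run lower, and Cd34 was 11388 to 16094 in RH2hKO and 10183 to 12847 in RH2hWT. The mean log2 difference of the GMP markers overlapped between groups (-0.18 to -0.04 in RH2hKO, -0.11 to 0.07 in RH2hWT). The part of these cell markers in the result on Cdc25b was not tested, and in bulk RNA fewer cells of a type cannot be told apart from less RNA per cell.

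The 3 genes whose values lay nearest to Cdc25b over the 8 libraries were Lpin1, Pidd1 and Cfp. Likeness was measured as the root-mean-square difference of log2 values centred on the control mean, which was 0.125 for Lpin1, 0.134 for Pidd1 and 0.140 for Cfp, against a median of 0.583 over 10858 genes. Lpin1, which encodes a phosphatidate phosphatase, had 532, 366, 535 and 254 normalised counts in RH2hKO replicates 5 to 8, against 254, 262, 224 and 201 in RH2hWT (limma adjusted p = 0.102, and 0.0034 without RH2hKO replicate 8). Pidd1, which encodes a death domain protein of caspase-2 activation, had 1972, 1745, 1798 and 1298 in RH2hKO, against 1016, 1052, 1160.5 and 982 in RH2hWT (limma adjusted p = 0.00792, and 0.11 with no intensity trend). Cfp, which encodes properdin, averaged 5235 ± 1217 in RH2hKO and 3481 ± 178 in RH2hWT (SD, n = 4 each; limma adjusted p = 0.0586, and 0.000339 without RH2hKO replicate 8). All 3 were chosen for this likeness, so their values are a description.

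**Figure D3:**
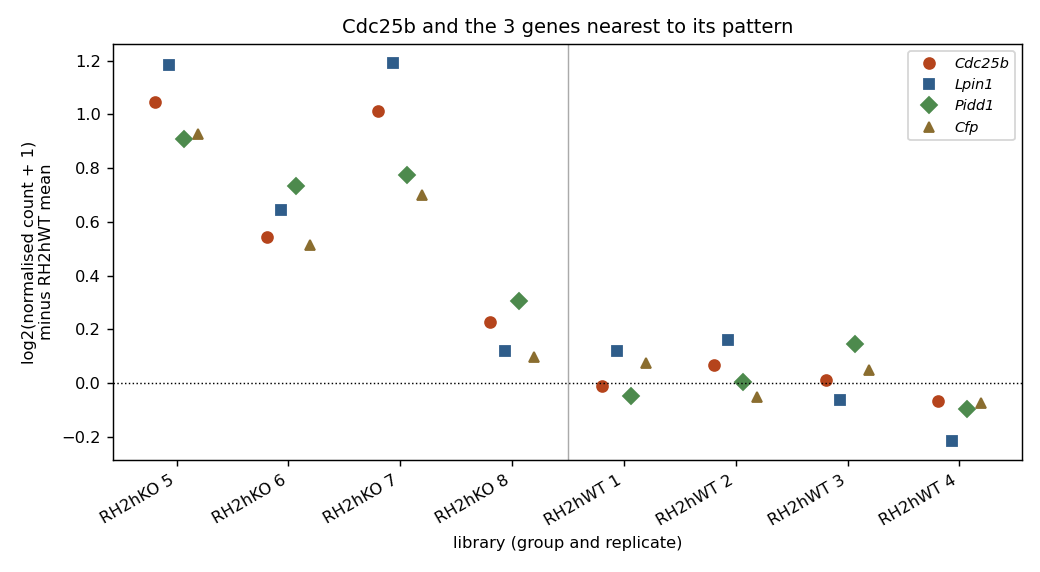
Log2(normalised count + 1) minus the RH2hWT mean (y axis) in each of the 8 libraries (x axis) for Cdc25b and the 3 genes nearest to it, Lpin1, Pidd1 and Cfp. RH2hKO replicates 5 and 7 are high, replicate 6 lower, and replicate 8 closest to the controls for all 4 genes.

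Levels of different genes were compared per kilobase of exon, with the lengths that the authors' table gives. In RH2hKO and RH2hWT Topbp1 stood highest, at 974 ± 23.2 and 1019 ± 49.4 normalised counts per kb (SD, n = 4 each), and Wee1 next, at 896 ± 47.3 and 922 ± 67.9. Their control ranges overlapped. Cdc25a (490 ± 37.5 in RH2hKO, 481 ± 22.9 in RH2hWT), Chek2, Chek1 and Clspn (356 ± 36.1 in RH2hKO, 371 ± 42.0 in RH2hWT) followed, each overlapping the next in the controls. Atm (204 ± 9.54 in RH2hKO, 224 ± 16.1 in RH2hWT), Atrip (185 ± 13.2 in RH2hKO, 178 ± 13.7 in RH2hWT) and Atr (94.7 ± 12.5 in RH2hKO, 96.3 ± 4.63 in RH2hWT) stood lower, and their control ranges did not overlap one another. Cdc25b, at 339 ± 88.6 in RH2hKO and 202 ± 7.85 in RH2hWT, lay between Atm and Atrip in the controls, where its range of 193 to 212 per kb overlapped that of Atm (203 to 243) and that of Atrip (162 to 194). In the knockouts it did not overlap Atm (236 to 418 against 195 to 216 per kb). The order depends on the length used: with the longest transcript, Atr stood at 278 and Atm at 225 per kb over all libraries. Cdc25a (1038) then stood above Wee1 (909).

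**Figure D4:**
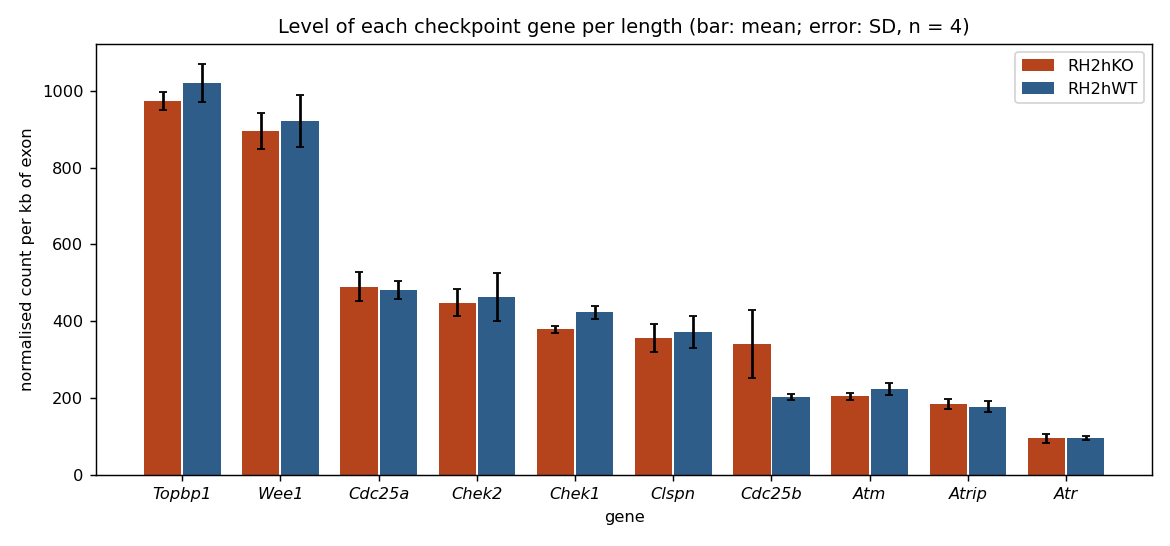
Normalised count per kb of exon (y axis, starting at 0) for each checkpoint gene (x axis), mean and SD over 4 libraries, RH2hKO beside RH2hWT. Topbp1 and Wee1 are highest, between 896 and 1019, and Cdc25b is the gene whose bars differ most, 339 in RH2hKO and 202 in RH2hWT.

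Of the 10 members 6 lie on chromosome 9 (Atm, Atr, Atrip, Chek1, Topbp1 and Cdc25a), and none of these 6 passed the test. On chromosome 9 as a whole 1.63% of 858 genes tested changed, against 1.39% of 15830 genes elsewhere.

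Genes that work beside the 10 were read from 8 lists with 97 genes, all tested. Outside the p53 output list 0 of 87 passed the test by limma, with 12 at an unadjusted p below 0.05, where 13.2% of all genes tested were below it. By edgeR on recovered reads 0 of the 87 passed, and by DESeq2 1 did (Ube2c, upward). By limma with array weights, over all libraries, Ube2c rose and Ccne2, Gins2, Pcna, Rpa3 and Tyms fell. In that setting 1001 of all 16688 genes tested passed. The p53 output list, which holds genes known from earlier results of these data to rise, had 5 of 10 higher and none lower, beside 1.19% of all genes tested that rose.

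No sensing gene passed the main test over all libraries. Of 12 genes for RPA, the 9-1-1 clamp, its loader and fork proteins none passed, and the median log2 fold change was -0.08. Rpa1, the large RPA subunit, averaged 8466 ± 340 in RH2hKO and 8929 ± 525 in RH2hWT (SD, n = 4 each). Tipin, which with Timeless travels with the fork, had 3772, 4239.7, 3846 and 5791 in RH2hKO replicates 5 to 8, against 4653 to 4974 in RH2hWT. RH2hKO replicates 5 to 7 were below every control and replicate 8 was above every control. The log2 fold change of Tipin was -0.14 over all libraries and -0.28 without RH2hKO replicate 8 (limma adjusted p = 0.0414). None of 10 double-strand break sensors and mediators passed (median 0.01). H2afx, the gene of the histone variant H2AX, averaged 10566 ± 1390 in RH2hKO and 9392 ± 536 in RH2hWT (SD, n = 4 each), and passed without RH2hWT replicate 1 and RH2hKO replicate 8 together (log2 fold change 0.26; limma adjusted p = 0.0464). Mdc1, which binds the phosphorylated form of H2AX, averaged 4648 ± 623 in RH2hKO and 4569 ± 412 in RH2hWT (SD, n = 4 each). Among 7 genes of related kinases and their assembly factors none passed (median 0.04). Smg1, a kinase of nonsense-mediated decay, averaged 5527 ± 533 in RH2hKO and 6256 ± 389 in RH2hWT, and Trrap, a scaffold of histone acetyltransferases, averaged 6300.1 ± 703 in RH2hKO and 6081 ± 529 in RH2hWT.

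The CDK end of the pathway was also without a call in the main test. None of 11 CDK, cyclin and parallel switch genes passed, and the median log2 fold change was 0.08. Ccna2, the cyclin A2 gene, averaged 7994 ± 292 in RH2hKO and 7458 ± 353 in RH2hWT, and Cdk1 averaged 5994 ± 483 in RH2hKO and 5894 ± 626 in RH2hWT (SD, n = 4 each). Ccna2 overlaps Exosc9 on the opposite strand, and no source states whether the counting used strand, so its level is uncertain. The same holds for 2 genes named below. Gins2 shares 2758 exonic bases with Gse1 (mean 3521 normalised counts), and Ccne2 shares 609 with Ints8 (mean 2018), both on the opposite strand. Of 7 recovery and turnover genes none passed (median -0.13). Skp1a, a subunit of the ubiquitin ligase that marks CDC25A and claspin for degradation, averaged 7198 ± 1052 in RH2hKO and 8093 ± 980 in RH2hWT. It passed, lower in RH2hKO, without RH2hWT replicate 1 and RH2hKO replicate 8 together (log2 fold change -0.33; limma adjusted p = 0.0294). Usp7, a deubiquitinase, averaged 6313 ± 280 in RH2hKO and 6328 ± 524 in RH2hWT.

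The p53 output genes that rose were Ccng1, Cdkn1a, Gtse1, Mdm2 and Plk2. Cdkn1a, whose product p21 inhibits CDKs, averaged 4955 ± 1154 in RH2hKO and 427 ± 60.7 in RH2hWT (SD, n = 4 each), a log2 fold change of 3.51 (limma adjusted p = 1.48e-08). Gtse1, a microtubule-associated protein of G2 that restrains p53, had a log2 fold change of 1.10 (limma adjusted p = 2.03e-05), and Ccng1, the cyclin G1 gene, one of 1.99 (limma adjusted p = 7.61e-09). Mdm2, the ubiquitin ligase of p53, averaged 3161 ± 379 in RH2hKO and 2132 ± 133 in RH2hWT (limma adjusted p = 0.00428), a call that ended with no intensity trend (0.0741). Plk2, a polo-like kinase, averaged 244 ± 138 in RH2hKO and 43.1 ± 21.1 in RH2hWT (limma adjusted p = 0.0381). Its groups overlapped, and its call ended without RH2hKO replicate 5, 6 or 7 or RH2hWT replicate 1, 3 or 4 (0.0532 to 0.140), with quantile normalisation (0.0607) and with no intensity trend (0.232). Gadd45a, a stress gene that can hold cells in G2, did not pass, with 808 ± 156 in RH2hKO and 829 ± 33.8 in RH2hWT.

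**Figure D5:**
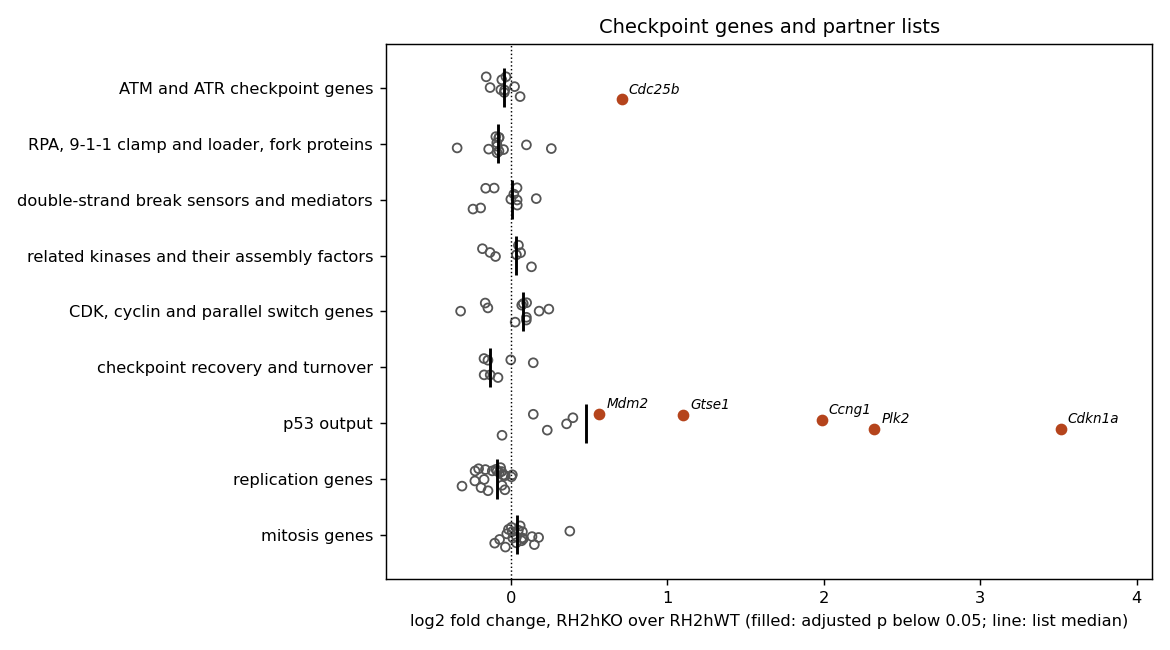
Log2 fold change, RH2hKO over RH2hWT (x axis), of every gene in the checkpoint set and the 8 partner lists (rows), with the list median as a line; filled points have an adjusted p below 0.05. Cdc25b and 5 p53 output genes are filled, and the other points lie between -0.34 and 0.40.

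No replication or mitosis gene passed the main test. Of 20 replication genes 18 had a log2 fold change below 0 and the median was -0.09. Mcm6 averaged 21918 ± 2010 in RH2hKO and 24617 ± 925 in RH2hWT, and Mcm5 averaged 18842 ± 840 in RH2hKO and 21572 ± 2142 in RH2hWT (SD, n = 4 each). Both encode subunits of the replicative helicase. Of 20 mitosis genes 15 were above 0 and the median was 0.04. Top2a, the gene of topoisomerase II alpha, averaged 29678 ± 1467 in RH2hKO and 29456 ± 2021 in RH2hWT, and Mki67, the proliferation marker Ki-67, averaged 18588 ± 2568 in RH2hKO and 19941 ± 2539 in RH2hWT. Without RH2hKO replicate 8, Gins2, Pcna and Tipin fell and Ube2c, Btg2 and Mdm4 rose in addition to the 5 p53 output genes. Without RH2hWT replicate 1 as well, these 6 passed again, with H2afx and Cenpf higher and Rpa3, Ccne2, Gins1, Tyms and Skp1a lower. In that setting 10 of the 97 partner genes rose and 8 fell. Over all genes tested, 3.41% passed without RH2hKO replicate 8 (569 of 16671) and 8.62% without both libraries (1440 of 16710). The counts of partner genes are a description only.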

How the data were processed

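Polyadenylated RNA of GMP from 4 RH2hKO and 4 RH2hWT mice went into directional libraries read from both ends, according to the labels. For the steps from reads to genes, the submitters' processing notes list DESeq2 1.30.1, featureCounts 2.0.1, FastQC, GSNAP 2020-12-16 and R 3.5.1, with build mm10. The deposited values are a signal: a gene's count scaled by the authors with a single factor for its library and kept to 1 decimal. Whole reads were recovered for 99.997% of values other than 0 within a tolerance of 0.051 normalised counts. Depth was 28352720 to 45655518 reads, and errors from reads cover counting only.

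Groups come from the labels, which name separate mice. Within a group, the chi-square per degree of freedom between libraries was 13.9 to 45.6, so no library is a copy of another. Genes were tested with limma 3.58.1 (R 4.3.3) with an intensity trend on log2(normalised count + 1), for 16688 genes with a mean of at least 10, with Benjamini-Hochberg adjustment over all of them and a threshold of 0.05. Fold changes on that scale understate the change of low genes. The alternatives were edgeR 4.0.16 and DESeq2 1.42.0 on the recovered reads, pseudocounts of 0.5 and 5, other filters, scalings and weights, and libraries left out. The members and lists were chosen with earlier results of these data known. All members are named. Of each list the genes named are up to 5 past the threshold, or the 2 most abundant where none passed. For Cdc25b, the 3 genes nearest in pattern with a mean of at least 50 are named. Gadd45a was named after its values were seen, as were genes named for an alternative or for a motif. Gene lengths are from the authors' deposited table, and promoters are from RefSeq (GRCm38.p6). Tests were checked on simulated data.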

Additional observations from a re-analysis of the deposited data

Results flagged for a closer look

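In 3 of 70 groups of 4 libraries examined, 1 library stood further from the rest than Dixon's 95% limit for 4 values. Chance flags about 1 in 20 groups, so 3 in 70 is not more than that. Topbp1 was high in RH2hWT replicate 1, at 12262 normalised counts, where the other controls had 11070.4 to 11253. Rpa1 was low in RH2hKO replicate 5, at 7958.5, and Mdc1 was low in RH2hKO replicate 8, at 3719.7 normalised counts. RH2hWT replicate 1 and RH2hKO replicate 8 are also the libraries that stand apart on the second principal component.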

How the results depend on the processing

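Of the 10 members, the 9 without a call stayed without one under all 19 alternatives, and Cdc25b stayed higher in RH2hKO under all 19 while its call ended under 8. No paired analysis was made. RH2hKO replicates are numbered 5 to 8 and RH2hWT replicates 1 to 4, and these numbers do not show which mice were littermates of one another. A difference between litters was therefore not accounted for. The number of genes changed, 234 in the main test, was 104 with no intensity trend, 558 by DESeq2, 1001 with array weights, 1440 without RH2hWT replicate 1 and RH2hKO replicate 8 together, and 135 to 569 with 1 library left out. The number of members changed was 0 with no intensity trend and 0 to 1 with 1 library left out (1 without RH2hKO replicate 8, 0 without any other). The number of partner genes changed was 3 with no intensity trend, 12 with array weights, 18 without both of those libraries and 4 to 11 with 1 library left out (11 without RH2hKO replicate 8). With the longest transcript as length, levels per kb over all libraries were 2141 for Topbp1, 1038 for Cdc25a, 909 for Wee1 and 600.8 for Chek2. Those of Clspn, Chek1, Atrip and Atr were 519, 490, 305 and 278. The ratio differences with 1 library left out were 0.55 to 0.81 for Cdc25b to Cdc25a and 0.64 to 0.87 for Cdc25b to Wee1, both on the log2 scale.

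Log2 fold changes near 0 changed sign in 11 genes without a call. With 1 library left out they ran from -0.104 to 0.024 for Atr, -0.105 to 0.0399 for Chek2, -0.129 to 0.0025 for Clspn, -0.071 to 0.0047 for Wee1, -0.024 to 0.054 for Cdc25a, -0.025 to 0.122 for Mdc1, -0.0124 to 0.126 for Trrap, -0.044 to 0.081 for Cdk1, -0.0301 to 0.054 for Usp7, -0.035 to 0.045 for Top2a and -0.18 to 0.0021 for Mki67. Atr was 0.00399 at equal totals. Without RH2hWT replicate 1 and RH2hKO replicate 8 together Wee1 was 0.041, Cdk1 -0.075, Usp7 0.037 and Mki67 0.055. With array weights Cdk1 was -0.054 and Usp7 0.0103, and Usp7 was also 0.035 at equal totals, 0.026 with quantile normalisation, 0.00701 by edgeR and 0.00083 by DESeq2. The cause was not tested.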
